A study of Mus musculus with 7 samples.

Results

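The 6 genes Trp73, Lhx1, Lhx5, Ebf1, Ebf2 and Ebf3 encode transcription factors of Cajal-Retzius cells. They were found by symbol among the 21862 genes of the matrix, and all 6 had a row. They were followed across the 19 numbered cell labels of the dataset and across embryonic stages, with attention to label 13 and to how it compares with labels 14, 6 and 8. The cells came from the dissected dorsal forebrain of CD-1 mouse embryos with no other genotype or treatment named, and were captured with Drop-seq, in which every mRNA is tagged near its 3′ end with 2 barcodes, 1 for the cell and 1 for the molecule (the unique molecular identifier, or UMI). The 7 samples were 1 each of embryonic day (E) 10.5, E12.5, E15.5, E16.5 and E18.5 and 2 of E14.5. They held 10261 cells and 27776936 UMIs. Neither litters nor numbers of embryos are named, so p-values cover the spread among these samples alone, part of which may be technical.

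Cajal-Retzius cells are early-born neurons that lie just under the surface of the cortex and secrete reelin, the glycoprotein that guides the layering of later neurons. In the mouse they arise at the edges of the cortex, among them the cortical hem, a strip of the dorsal midline that secretes Wnt and Bmp proteins, and they migrate over the surface. Trp73 is a relative of p53 and is needed in the mouse for these cells to survive. Lhx1 and Lhx5 are LIM homeodomain proteins, which bind DNA with partner proteins such as Ldb1, and Lhx5 is needed in the mouse for the normal development of Cajal-Retzius cells and the hippocampus. Ebf1, Ebf2 and Ebf3 belong to one helix-loop-helix family that acts in differentiating neurons and, outside the brain, in blood and connective tissue.

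In the mm10 build, Trp73 lies on the reverse strand of chr4:154056253-154140208 and Lhx1 on the reverse strand of chr11:84518284-84525535. Lhx5 lies on the forward strand of chr5:120431699-120441223. Ebf1 lies on the forward strand of chr11:44617317-45008091, Ebf2 on the forward strand of chr14:67233292-67430918 and Ebf3 on the reverse strand of chr7:137193673-137314445. The gene list also holds genes annotated on the opposite strand within 2 of these, namely Gm12158 in Ebf1, and Gm6878, 1700120O09Rik and Gm10860 in Ebf2. The counted strand is not given in the sources used here, so reads of those pairs might not be told apart. RefSeq start regions (GRCm38.p6, 250 bases before to 50 after a start) matched Trp73 and Ebf1 at 2 starts each and Lhx1 and Ebf3 at 1 each. The regions of Trp73 and Lhx1 are printed 5′ to 3′ because these were the 2 genes most concentrated in label 13, and capitals mark E-boxes (CANNTG, read on both strands), the motif that basic helix-loop-helix factors can bind. The first start of Trp73 is at chr4:154139826-154140125 and the second at chr4:154097124-154097423, and that of Lhx1 is at chr11:84525485-84525784, all on the reverse strand.
Trp73 first start: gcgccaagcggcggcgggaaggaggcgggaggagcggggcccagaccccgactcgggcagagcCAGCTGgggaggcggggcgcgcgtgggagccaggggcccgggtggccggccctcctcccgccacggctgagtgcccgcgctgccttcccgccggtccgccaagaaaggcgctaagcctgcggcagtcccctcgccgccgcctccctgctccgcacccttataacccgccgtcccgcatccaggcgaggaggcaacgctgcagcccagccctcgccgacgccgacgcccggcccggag
Trp73 second start: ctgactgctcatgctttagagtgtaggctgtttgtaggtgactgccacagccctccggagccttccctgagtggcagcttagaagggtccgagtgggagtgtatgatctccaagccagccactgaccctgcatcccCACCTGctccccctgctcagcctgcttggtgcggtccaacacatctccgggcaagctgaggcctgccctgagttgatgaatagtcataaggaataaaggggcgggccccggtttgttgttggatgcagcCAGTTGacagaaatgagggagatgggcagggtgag
Lhx1 start: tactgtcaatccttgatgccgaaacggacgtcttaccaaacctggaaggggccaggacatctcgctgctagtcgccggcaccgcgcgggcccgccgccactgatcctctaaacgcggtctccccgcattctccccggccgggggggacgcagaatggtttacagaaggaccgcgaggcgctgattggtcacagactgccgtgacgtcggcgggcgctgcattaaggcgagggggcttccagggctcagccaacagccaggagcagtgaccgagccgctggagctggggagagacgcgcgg
The first start of Trp73 had 1 E-box, the second had 2 and the region of Lhx1 had 0, while 72.3% of 32851 RefSeq start regions held at least 1. The starts of Trp73 differed in base composition, with 77.7% G and C at the first and 57.7% at the second, against a median of 52.7% over all regions. Tags from the 3′ end do not show which start a transcript used. None of the 6 matched regions held the palindrome bound by Ebf factors, the homeodomain core TAATTA or the TATA box TATAAA, which 0.904%, 5.29% and 13.6% of all regions held on either strand.

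Label 13 held 220 cells. Of 16 marker genes of Cajal-Retzius cells, none of them among the 6 transcription factors, 15 were at least 2-fold higher in label 13 than in all other cells, with Reln at 1451 CPM (counts per 1000000 UMIs) against 5.55 CPM and Ndnf at 546 CPM against 2.59 CPM. Spock1 was the marker at 0. The level of Reln was 71.8 CPM in label 13 at E10.5, with a UMI in 9 of 66 cells, and between 763 and 2983 CPM in the later samples. At E10.5, on which the comparisons with labels 14 and 6 mostly rest, the Cajal-Retzius markers summed to 2720 CPM in label 13 and the 12 markers of early neuroepithelium to 2845 CPM. Label 14 (213 cells) had 12 of 14 hem markers at 2-fold, among them Wnt3a at 44.0 CPM against 0 elsewhere, together with 9 of 12 markers of early neuroepithelium. Label 13 itself had 7 of the 14 hem markers at 2-fold, with Rspo3 at 616 CPM against 103 CPM, while Wnt3a, Bmp4, Bmp6 and Ttr were at 0. Label 6 (672 cells) had 8 of those 12, and label 8 (437 cells) had all 11 interneuron markers. The labels are taken to come from a clustering of these cells that could use these genes, so all contrasts between deposited labels are given here as descriptions. The cells of label 13 numbered 66, 23, 54, 10, 25, 6 and 36 in E10.5, E12.5, E14.5 replicate 1, E14.5 replicate 2, E15.5, E16.5 and E18.5, with between 44427 and 222821 UMIs per sample. No cell of label 13 was called a doublet and none shared its barcode with another library. In 1 library of E14.5 replicate 1 the sample was inferred from the library's name.

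Trp73 was almost confined to label 13. Of its 124 UMIs, 121 lay there (97.6%, 95% exact binomial interval by Clopper-Pearson from 93.1 to 99.5, which like all intervals given here covers counting error alone), although label 13 held 2.73% of all UMIs. The level was 160 CPM in label 13 (exact Poisson interval 132 to 191), and the other 3 UMIs lay in 1 cell of label 15 and 2 cells of label 1. It had no UMI in the other 16 labels, where 3 counts would be between 0.877 and 46.9 CPM. Lhx1 had 375 of its 404 UMIs in label 13 (92.8%), a level of 495 CPM (446 to 547). Label 7 was next at 9.02 CPM (4.66 to 15.8), and 10 of its 12 UMIs were in 3 cells of E10.5. The 10 further labels with a UMI had at most 3 each, so that their order cannot be read. Label 13 thus held nearly all UMIs of both genes.

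Lhx5 had a second site. Its level was 446 CPM in label 13 (400 to 496), 112 CPM in label 14 (91.3 to 135) and 11.9 CPM in label 6 (8.22 to 16.6), and these 3 intervals did not overlap. Label 13 held 338 of the 485 UMIs (69.7%). All 104 UMIs in label 14 and all 34 in label 6 came from E10.5. Over the whole dataset 2 UMIs of Lhx5 lay outside label 13 at all later stages together, against 145 at E10.5. In label 14 a UMI was seen in 28.9% of 114 cells in the first E10.5 library and in 47.5% of 61 cells in the second, so both libraries showed it. The whole-tissue level lay between 3.83 and 18.1 CPM in the later samples, against 43.6 CPM at E10.5. A level over all cells cannot tell fewer expressing cells from less RNA per cell. Label 14 was nearly all E10.5 cells (175 of 213), and its 23 cells of E14.5 replicate 1 had 0 UMIs of Lhx5, a depth at which 3 counts would be 47.8 CPM.

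The Ebf genes were spread more widely. Ebf1 did not peak in label 13. Its level was 359.7 CPM (228 to 540) in label 18, a group of 25 cells with all 7 mural markers at 2-fold, and 119 CPM (82.1 to 167) in label 16, with all 6 endothelial markers. Label 13 came after both at 60.7 CPM (44.4 to 80.9) with 46 of 226 UMIs (20.4%), followed by label 15, which had all 8 mesenchymal markers, at 29.5 CPM (17.8 to 46.0) and label 0 at 17.5 CPM (13.4 to 22.6). The intervals of labels 13 and 15 touched, as did those of labels 15 and 0. In label 13 itself the summed level of the 6 endothelial markers was 5.28 CPM and 4 of 7 mural markers were at 0, while Rgs5 and Cspg4 had 27 and 7 UMIs. Their part in the Ebf1 level was not tested. Ebf2 and Ebf3 both led in label 13, at 149 CPM (123 to 179) and 223 CPM (191 to 259), with 44.7% and 64.5% of their UMIs. The next levels of Ebf2 were in labels 7 and 4, at 47.4 CPM (36.4 to 60.6) and 20.1 CPM (13.7 to 28.3), and those of Ebf3 were 23.3, 20.2 and 18.2 CPM in labels 7, 15 and 4, whose intervals overlapped. Labels 4 and 7 had all 8 intermediate progenitor markers at 2-fold, the Eomes-expressing cells that divide away from the ventricle. At E10.5 alone, the 25 cells of label 7 had Ebf2 at 235 CPM (153 to 344) and Ebf3 at 144 CPM (82.6 to 235). Label 13 had 265 CPM (202 to 342) and 179.5 CPM (128 to 244) in that sample, so the intervals of each gene overlapped. At E12.5 they did not, with Ebf2 at 48.3 CPM (34.0 to 66.5) in label 7 and 206 CPM (98.9 to 379) in label 13.

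**Figure D1:**
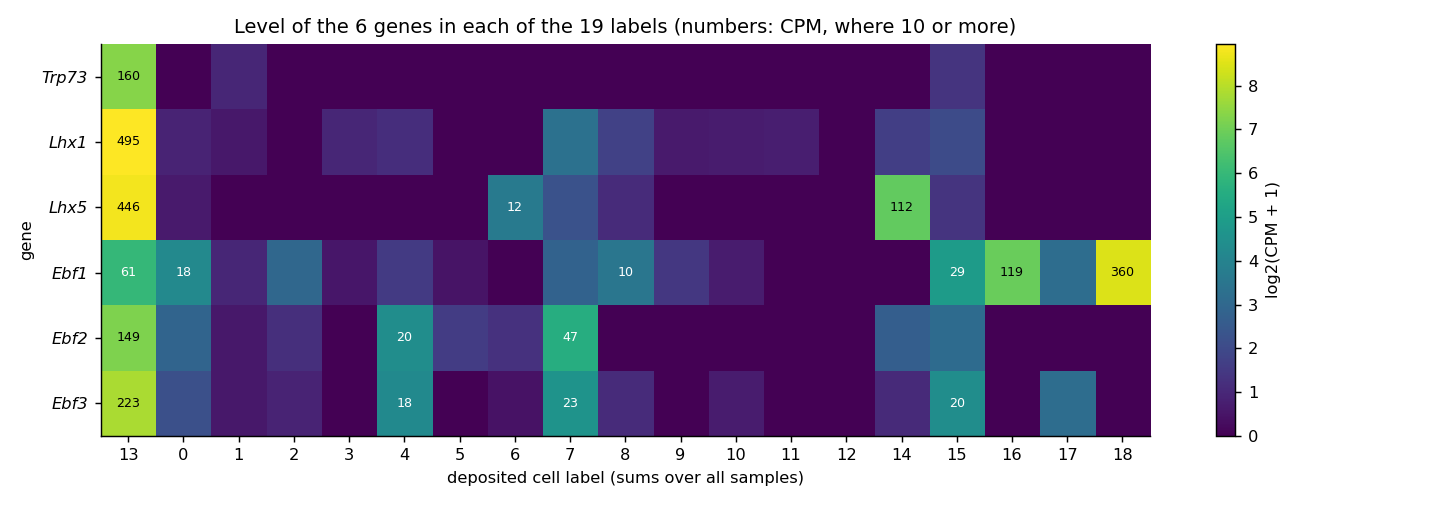
Level of each gene (rows) in each deposited label (columns, label 13 at the left), as log2(CPM + 1) of counts summed over all samples, with CPM printed where it is 10 or more. Trp73 and Lhx1 stand out in label 13 alone, Lhx5 also in label 14 (112 CPM), Ebf1 in labels 18 and 16, and Ebf2 and Ebf3 also in labels 7 and 4.

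Within label 13, every gene had UMIs in all 7 samples. Trp73 was at 80.8, 124, 237, 457, 149, 158 and 131 CPM in the order of stages, with E14.5 replicate 1 before replicate 2. The highest value, in E14.5 replicate 2, rested on 21 UMIs of 10 cells (283 to 699 CPM), and the lowest was at E10.5. Lhx1 was at 408, 433, 523, 805, 558, 720.3 and 406 CPM. Lhx5 was at 314, 454, 537, 588, 568, 518 and 399 CPM. For both LIM genes E10.5 and E18.5 were at the low end and E14.5 replicate 2 was the highest.
Ebf1 was at 80.8, 227, 27.9, 65.3, 65.2, 22.5 and 13.7 CPM, from only 1 to 18 UMIs a sample. Ebf2 was at 265, 206, 118, 65.3, 205, 22.5 and 6.87 CPM. Its E10.5, E12.5 and E15.5 samples were high, and E16.5 and E18.5 had 1 UMI each. Ebf3 was at 179.5, 144, 348, 283, 289, 158 and 144 CPM, with its highest values from E14.5 to E15.5. The interval of E14.5 replicate 1 (259 to 459) lay above those of E10.5 (128 to 244) and E18.5 (89.4 to 221). Those of E14.5 replicate 2 (151 to 484) and E15.5 (196 to 410) overlapped both. The E14.5 replicates differed by 457 against 237 CPM for Trp73 and by 65.3 against 118 CPM for Ebf2, and in each case their counting intervals overlapped.

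**Figure D2:**
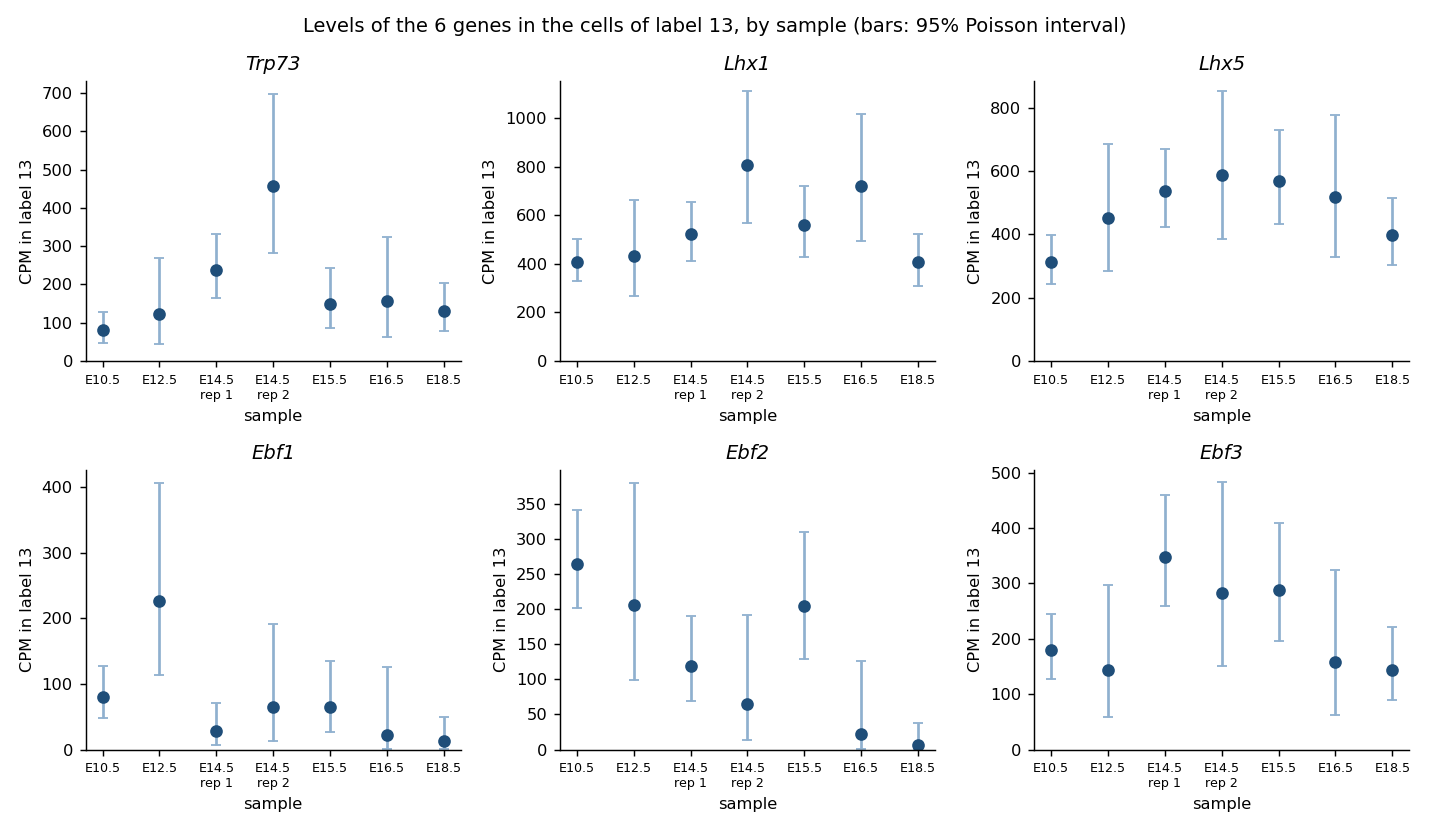
CPM of each gene in the cells of label 13 (vertical axis) in the 7 samples (horizontal axis), with 95% exact Poisson intervals as bars. Ebf2 has 1 UMI at E18.5 and 59 at E10.5, while Lhx1 and Lhx5 stay between 314 and 805 CPM.

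The change with stage within label 13 was tested as a slope on embryonic day, in log2 units per day, with edgeR's quasi-likelihood test over 6 samples, E16.5 being left out for its 6 cells. Ebf2 fell with stage (slope −0.36, SE 0.10, Benjamini-Hochberg adjusted p = 0.0353). It was the only member called, among 3786 tested genes of which 4.12% were called higher and 2.54% lower at later stages. The call did not hold in 8 of 18 alternative fits (adjusted p up to 0.420): it rested on E10.5 (slope −0.50 and adjusted p = 0.220 without it) and on E18.5 (slope −0.19 and adjusted p = 0.420 without it), while the slope was negative in all 18. Not all 18 are separate checks. Leaving out doublets repeats the main fit, since label 13 held 0, and a minimum of 20 cells is the same fit as leaving out E14.5 replicate 2. Ebf1 had a slope of −0.32 (SE 0.14, adjusted p = 0.219), Ebf3 0.01 (SE 0.08, adjusted p = 0.958), Lhx1 0.02 (SE 0.06, adjusted p = 0.910), Lhx5 0.06 (SE 0.06, adjusted p = 0.706) and Trp73 0.09 (SE 0.10, adjusted p = 0.697). Whether the slope of Ebf2 differs from theirs was not tested.
Other markers moved with stage in the same cells. The 16 Cajal-Retzius markers summed to 15816 CPM at E18.5 and 2720 CPM at E10.5, and the 8 intermediate progenitor markers to 220.0 CPM at E18.5 and 1696 CPM at E10.5. Interneuron markers gave 28 UMIs in label 13 at E18.5 and 7 or fewer in any other sample. The part of these in the slope of Ebf2 was not tested, apart from leaving out the 5 cells of label 13 with a UMI of Dlx1, Dlx2, Dlx5, Dlx6os1, Gad1 or Gad2, 3 of them at E18.5. Cells with UMIs of the other interneuron markers stayed in. After that the slope was −0.38 (adjusted p = 0.0479 by edgeR).
Over all cells, Ebf2 was at 20.7, 16.5, 4.22, 1.55, 6.32, 0.658 and 0.567 CPM in the 7 samples and fell by 0.63 per day (SE 0.12, adjusted p = 0.00888 by edgeR), a call kept in all 15 alternative fits. This level holds both the share of cells and the level per cell, so it is no separate check of the slope within label 13. Outside label 13 lay 43 of the 102 UMIs of Ebf2 at E10.5 and 85 of the 95 at E12.5. Label 13 made up 5.63% of cells at E10.5, 0.862% at E12.5 and 2.82% at E18.5. The part of cell shares in the whole-tissue slope was not tested. No other member was called over all cells, where 12.1% of 12481 genes were called higher and 12.3% lower.

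The balance of Ebf2 and Ebf3 in label 13 was counted per sample. Ebf2 made up 59.6% of the UMIs of both genes at E10.5 (59 of 99, exact interval 49.3 to 69.3) and 58.8% at E12.5 (10 of 17). It was 25.4% and 18.8% in the E14.5 replicates, 41.5% at E15.5 (22 of 53), 12.5% at E16.5 (1 of 8) and 4.55% at E18.5 (1 of 22, 0.115 to 22.8). The intervals of E18.5 and E10.5 did not overlap, while that of E15.5 overlapped that of E10.5. In labels 4 and 7 together the share was 61.7% of 47 UMIs at E10.5, 75.3% of 73 at E12.5 and 40.0% of 25 in E14.5 replicate 1, and later samples had at most 4 UMIs of both genes. These shares are descriptions, since the level of Ebf2 with stage was already tested.

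**Figure D3:**
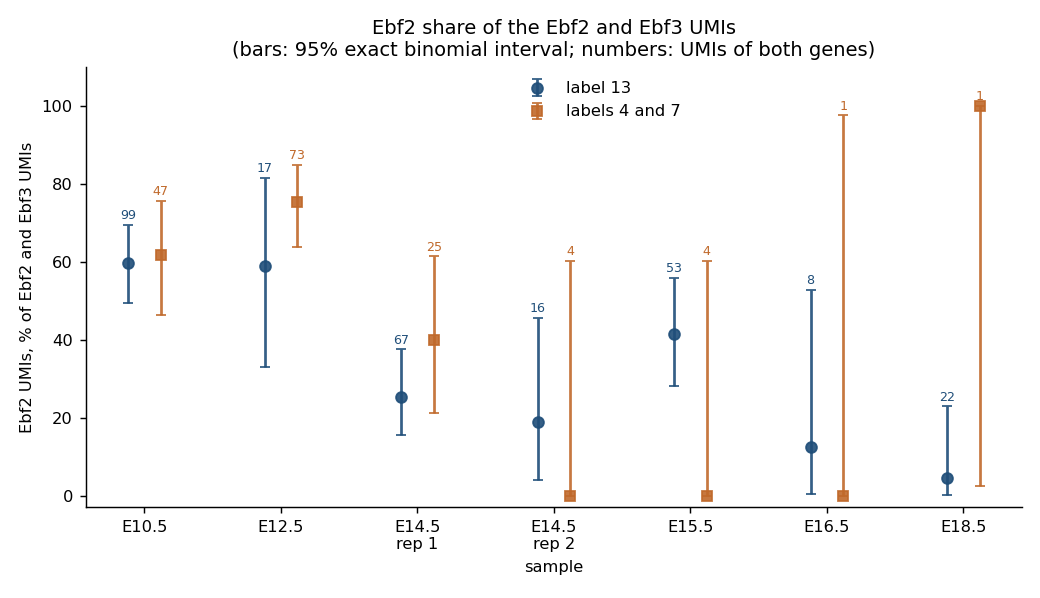
Ebf2 UMIs as a percent of the UMIs of Ebf2 and Ebf3 (vertical axis) by sample, in label 13 (circles) and in labels 4 and 7 (squares), with 95% exact binomial intervals and the number of UMIs above each. In label 13 the share is 4.55% at E18.5 and 59.6% at E10.5, and in labels 4 and 7 it can be read only up to E14.5 replicate 1.

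Label 13 was next set against labels 14, 6 and 8, within samples holding at least 10 cells of each. All 6 genes were at least 2-fold higher in label 13 than in each of labels 14, 6 and 8, where a count of 0 was set to 3 counts over the samples compared. Of all genes with at least 10 CPM, 21.9%, 24.7% and 14.5% were 2-fold higher than in label 14, 6 and 8, and 4.57% exceeded all 3 labels.
Against label 14, the comparison rested on E10.5 and E14.5 replicate 1. Among the genes with UMIs in label 14, Lhx5 was the closest, at 314 CPM in label 13 and 127 CPM in label 14 at E10.5, a ratio of 2.47 (counting interval 1.80 to 3.38). Ebf2 was at 265 CPM in label 13 and 6.11 CPM in label 14 at E10.5, a ratio of 43.3 (17.6 to 138). Trp73 and Ebf1 had no UMI among 881222 in label 14, and over both samples were at least 41.7-fold and 17.6-fold higher in label 13. Within E10.5 alone each was at least 22.0-fold higher. In E14.5 replicate 1, Trp73 was at least 4.95-fold higher, while Ebf1, at 27.9 CPM in label 13, lay under the 47.8 CPM that 3 counts would be in label 14, so that no difference could be read. Lhx1 had 2 and Ebf3 had 1 UMI in label 14, against 166 and 90 in label 13.
Against label 6, in E10.5 and E12.5, Lhx5 was at 339 CPM in label 13 and 11.99 CPM in label 6, a ratio of 28.3 (18.9 to 43.2). Trp73, Lhx1 and Ebf1 had no UMI among 2835969 in label 6 and were over both samples at least 83.6-, 390.2- and 101-fold higher in label 13. At E12.5 alone, where label 6 had 41 cells, the bounds were 4.03, 14.1 and 7.39. Label 6 held 4 UMIs of Ebf2 and 1 of Ebf3.
Against label 8, in 6 samples, Ebf1 was the closest of the genes with UMIs in label 8. It was at 63.1 CPM in label 13 and 12.03 CPM in label 8 over all of them, a ratio of 5.24 (2.53 to 12.2). At E12.5 it was at 227 CPM in label 13 and 98.5 CPM in label 8, a ratio of 2.30 whose interval (0.843 to 6.59) included 1, and those 8 UMIs of label 8 lay in 2 of 50 cells. Ebf2 and Trp73 had no UMI in label 8, and over the 6 samples were at least 39.1-fold and 39.8-fold higher in label 13. In single samples the bound for Trp73 was between 2.87 and 13.7. At E18.5 label 13 had 6.87 CPM of Ebf2 and 13.7 CPM of Ebf1, both under the 14.1 CPM that 3 counts would be in label 8, so that no difference could be read there. Over the 6 samples together, Lhx1, Lhx5 and Ebf3 had 2, 1 and 1 UMI in label 8.

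**Figure D4:**
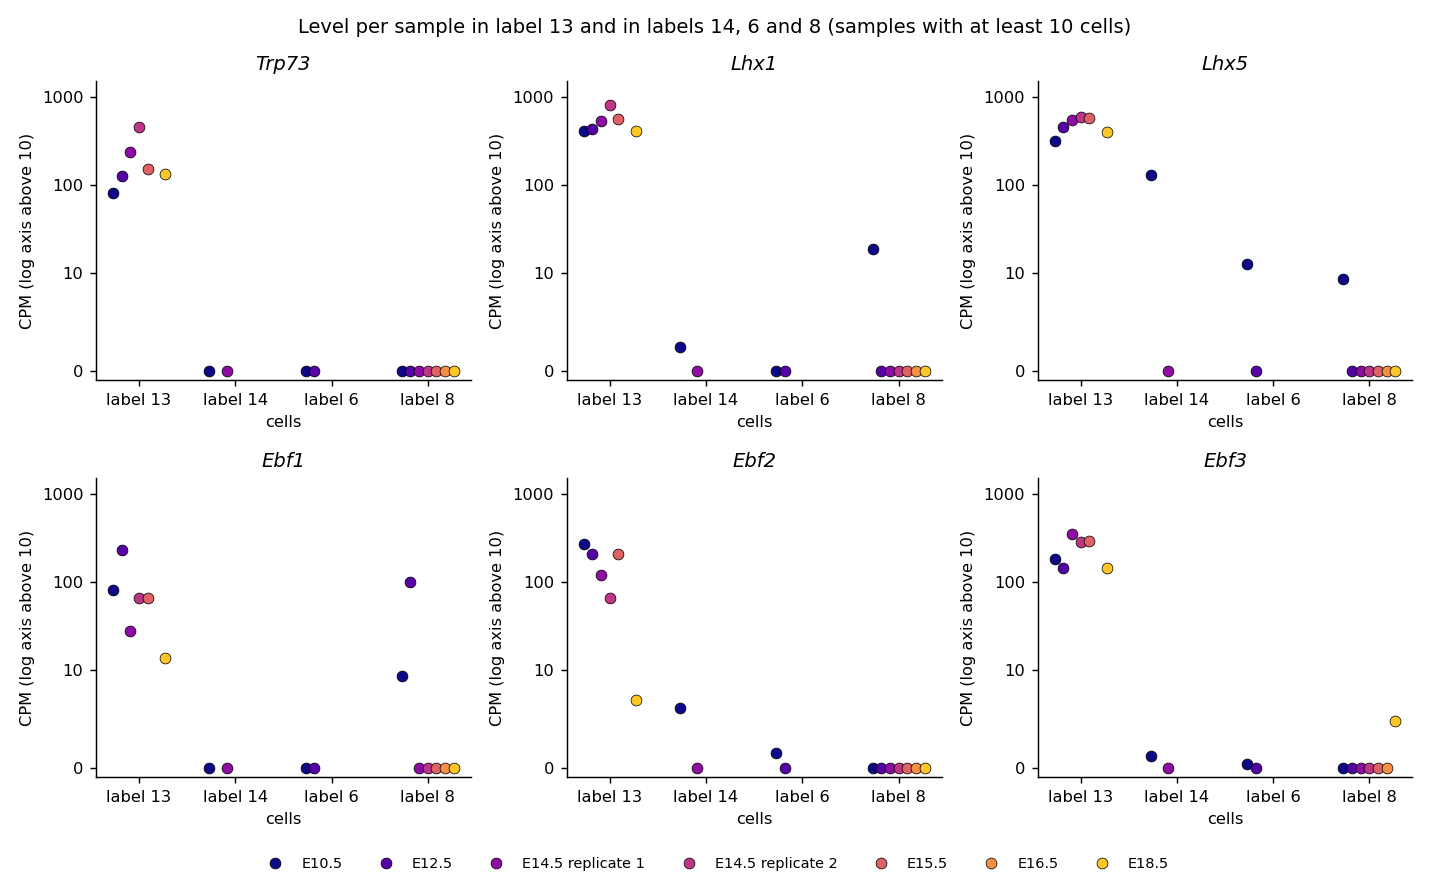
CPM of each gene (vertical axis, logarithmic above 10 and linear below) in label 13 and in labels 14, 6 and 8, 1 point per sample with at least 10 cells, coloured by sample. Lhx5 in label 14 at E10.5 (127 CPM) and Ebf1 in label 8 at E12.5 (98.5 CPM) are the values nearest to those of label 13 by ratio, among pairs in which the other label has a UMI.

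Cells were also clustered anew with the 6 genes left out, and the new clusters were matched to the deposited labels by shared cells. Tests between the new clusters thus do not stand apart from those labels, since the groups compared hold mostly the same cells. The cluster matching label 13 had 211 cells and held 199 of its 220 cells (90.5%), and the clusters matching labels 14, 6 and 8 held 84.0%, 91.2% and 98.2% of theirs. The 6 genes were chosen as genes of Cajal-Retzius cells, so the tests describe this dataset and are no independent support for that choice. Against the cluster of label 14 (2 samples, 4074 genes tested, 6.92% called higher and 6.04% lower), 5 of 6 genes were called higher by edgeR, Lhx5 with the smallest difference at 2.19 log2 units (SE 0.56, adjusted p = 0.00847), and Ebf1 had too few counts to be tested. Against that of label 6 (2 samples, 13.7% of 2988 called higher and 11.4% lower), all 6 were called, Lhx5 again with the smallest difference at 4.50 (SE 0.59, adjusted p = 2.31e-12). Against that of label 8 (5 samples, 5.67% of 4357 called higher and 3.47% lower), 5 were called, and Ebf1 was not, at 2.45 (SE 0.84, adjusted p = 0.0864). With no filter on low counts Ebf1 was called too (adjusted p = 0.00993 by edgeR). The deposited labels give no test, since these genes could enter into them. The same edgeR fit on those labels gave differences of similar size for these 2 genes but the opposite call: Lhx5 against label 14 was 2.24 (SE 0.74, adjusted p = 0.141) and Ebf1 against label 8, there over 6 samples, was 2.73 (SE 0.73, adjusted p = 0.0160). The fits against labels 14 and 6 rest on 2 samples each, too few for the size of an adjusted p to be read. For Lhx5 against label 6 it was 2.31e-12 in the new clusters and 0.00188 on the deposited labels, both by edgeR.

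In single cells of label 13, 192 of 220 had a UMI of at least 1 of the 6 genes (87.3%, exact interval 82.1 to 91.4), 65.0% of at least 2, 40.5% of at least 3 and 20.5% of at least 4. In label 14 the shares were 29.6% for at least 1 and 1.41% for at least 2, in label 6 they were 4.32% and 0%, and in label 8 they were 1.37% and 0%. For at least 2 genes, the exact upper limits of these counts of 0 were 0.547% of the 672 cells of label 6 and 0.841% of the 437 of label 8, and 3 cells would be 0.446% and 0.686%. Median depths were 2564 UMIs per cell in label 13, 3192 in label 14, 3501 in label 6 and 1523 in label 8. Outside label 13 altogether, 3 of 10041 cells had at least 3 of the genes. With each cell thinned to 1000 UMIs, leaving out the 23 shallower cells of label 13, the share with at least 1 gene was 72.6%. Without thinning, 90.4% of the deeper 197 cells and 60.9% of the 23 shallower ones had a gene. The thinned share with any gene was taken in label 13 only, so the contrast with the other labels is not matched for depth. For Lhx5 alone, the thinned shares were 31.5% in label 13, 9.57% in label 14, 1.17% in label 6 and 0% in label 8.
Singly, Lhx5 was seen in 56.4% of label 13 cells, Lhx1 in 52.3%, Ebf3 in 38.6%, Trp73 in 33.2%, Ebf2 in 27.7% and Ebf1 in 12.3%. Of the 73 cells with Trp73, 75.3% also had Lhx1 and 71.2% Lhx5, against 40.8% and 49.0% of the 147 cells without it. Lhx1 and Lhx5 were seen together in 86 cells, and 74.8% of cells with Lhx1 had Lhx5, against 36.2% of cells without Lhx1. Ebf1 went the other way with Trp73: 6.85% of cells with Trp73 (5 cells) had it, against 14.97% of cells without. It did so with Lhx1 (8.70% against 16.2%) and Lhx5 (10.5% against 14.6%) too, as did Ebf2 with Lhx5 (25.8% against 30.2%). Deeper cells show more of any gene, cells of different stages are mixed here, and cells are not replicates, so these shares carry no test.

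**Figure D5:**
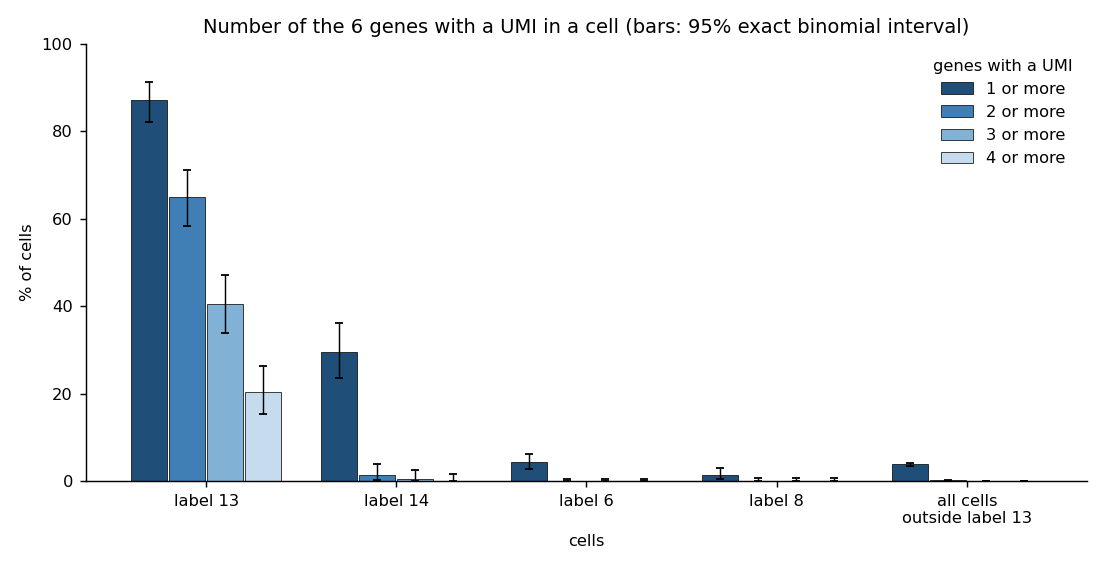
Percent of cells (vertical axis) with a UMI of at least 1, 2, 3 or 4 of the 6 genes, in label 13, in labels 14, 6 and 8 and in all cells outside label 13, with 95% exact binomial intervals. In label 13, 65.0% of cells have at least 2 of the genes, against 1.41% in label 14.

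The genes most like each member over the 19 label sums, by Pearson r of log2(CPM + 5) among 11435 genes with at least 20 CPM in a label, are given as a description, since the points share libraries and differ in depth. Trp73 was nearest to Kcnj5 (r = 0.995), 1500016L03Rik and Vmn2r1, and Lhx1 to 1500016L03Rik, Trp73 and Kcnj5. Since Trp73 was at 160 CPM in label 13 and at most 1.55 CPM in any other label, its r is set mostly by label 13 alone. Lhx5 was nearest to RP24-351J24.2, Barhl2 and Gmnc. Ebf1 was nearest to Kctd10 (r = 0.868), Vasp and Xpnpep1. Ebf2 was nearest to Uncx (r = 0.947), a homeodomain gene, Ebf3 and Tmem163, and Ebf3 to Ebf2, Uncx and Lhx1.

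Relatives, partners and other transcription factors of these cells were followed in 3 lists. Of 12 other p53, LIM homeodomain and Ebf family genes in the matrix, 1 was at least 2-fold higher in label 13 than in each of labels 14, 6 and 8. Of the 11121 genes with at least 10 CPM in a label compared, 4.57% were, while the lists had no such minimum. The 1 list gene was Lhx9, at 143 UMIs in label 13. Within label 13, Lhx9 fell with stage (slope −0.64, SE 0.09, adjusted p = 4.77e-05 by edgeR) and so did Lhx2 (slope −0.32, adjusted p = 0.00414). This made 2 of 3 tested genes called lower and 0 higher, where 2.54% of all 3786 genes tested were called lower and 4.12% higher. Lhx9 was at 20.6 CPM at E18.5 and 471 CPM at E10.5, and Lhx2 at 158 CPM at E18.5 and 718 CPM at E10.5. Trp63, the other relative of p73, had no UMI in label 13, where 3 counts would be 3.96 CPM, and Ebf4 had 3 UMIs.
Of 14 partners and targets, 2 were 2-fold higher than in all 3 labels, against 4.57% of the 11121 genes. The 2 were Cdkn1a, the cell cycle inhibitor p21 that p53 family proteins can induce, with 491 CPM in label 13, and Ccng1, another p53 target, with 116 CPM. Cdkn1a fell with stage (slope −0.43, SE 0.11, adjusted p = 0.0162), at 857 CPM at E10.5, 309 CPM at E12.5, 795 and 457 CPM at E14.5, 251 CPM at E15.5, 22.5 CPM at E16.5 and 20.6 CPM at E18.5. It was the 1 gene of 7 tested that was called, where 2.54% of all 3786 genes were called lower and 4.12% higher. Trp73 had no called slope, and whether the slopes of Cdkn1a and Trp73 differ or are linked was not tested. Ldb1, Ldb2, Trp63 and Ebf4 are named here as the nearest partners and relatives, chosen after their values were seen. Ldb1, the LIM domain partner, was detected at 142 CPM in label 13 (slope −0.23, adjusted p = 0.0689), and Ldb2 had no UMI there.
Of 24 other transcription factors of Cajal-Retzius cells and their sources, 10 were 2-fold higher than in all 3 labels, against 4.57% of the 11121 genes. Nhlh2, Tbr1, Nhlh1, Neurod1, Eomes and Bhlhe22 were the furthest from all 3 labels. Of the 10, Nhlh2, Tbr1 and Nr2f2 also belong to the 16 markers by which label 13 was checked, so their height there is not separate evidence. Nhlh2, a basic helix-loop-helix factor, was at 1772 CPM in label 13. With stage, 5 of 17 tested genes were called lower and 2 higher, against 2.54% lower and 4.12% higher of all 3786 genes. The steepest falls were those of Neurod1 (slope −0.74, SE 0.08), Bcl11b (−0.54, SE 0.15), Emx1 (−0.52, SE 0.14) and Eomes (−0.39, SE 0.07), which are genes of neuron progenitors and young cortical neurons, with adjusted p between 1.99e-06 and 0.0365. Zic5 (slope 0.33, SE 0.10, adjusted p = 0.0467) and Nhlh2 (slope 0.23, SE 0.06, adjusted p = 0.0310) rose. The median slope was −0.32 in the list of relatives, −0.11 in the list of partners and −0.14 in this list, against −0.003 over all 3786 genes tested.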

How the data were processed

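Drop-seq counts of 7 samples of mouse dorsal forebrain were used as the authors deposited them, as whole UMI counts per gene and cell with a numbered label per cell. Per the labels' protocols, reads followed the Drop-Seq protocol version 3.1, and per the submitters' processing notes the build was mm10 and Seurat 3.1.5 was used. The aligner, the annotation and the counted strand are not given in the sources used here. No cell was removed, the lowest having 501 genes. Cell totals per sample were between 387 and 3235, with median depths of 1645 to 3352 UMIs.

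Counts were summed per sample and label, and CPM is counts per 1000000 UMIs of that sum. Sums of at least 10 cells were tested with edgeR 4.0.16 in R 4.3.3 (TMM, filterByExpr, quasi-likelihood), with Benjamini-Hochberg adjustment over all genes tested and a threshold of 0.05. DESeq2 1.42.0 was an alternative. Cells were reclustered with scanpy 1.11.5 and leidenalg 0.10.2 without the 6 genes. On simulated data, 38% of genes changed by a slope of 0.25 and 92% of those changed by 0.5 were recovered within label 13, and 49% and 96% over all cells. For a log2 difference of 1, the recovered share was 4% against label 14, 27% against label 6 and 25% against label 8, and for 3 it was 87%, 96% and 97%. Among unchanged genes, 2 were called within label 13, 7 over all cells, and 0, 5 and 7 against labels 14, 6 and 8. The changed genes were drawn from all tested genes, so the shares do not give the recovery for genes with as few UMIs as Ebf1. Intervals are 95% and cover counting error only, and a count of 0 was set to 3 counts. Scrublet, run with an expected rate of 5%, marked 95 cells, 0 of them in label 13, and they were kept. Of all barcodes, 5.05% lay in families of near-identical sequence, among them 11 of label 13. The 6 genes, the gene lists and the tests were chosen with earlier results of these data known. Genes named beyond the 6 are the 3 most alike per gene and, of each list, up to 4 called per direction and up to 6 at 2-fold over all 3 labels, largest first. Ldb1, Ldb2, Trp63, Ebf4 and Nr2f2 are named outside that rule.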

Additional observations from a re-analysis of the deposited data

How the results depend on the processing

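No paired analysis was possible because, for the slopes on stage, each stage but E14.5 has 1 sample, so that stages share a single replicate number. The fits of label 13 against labels 14, 6 and 8 compare cells of the same samples and had the sample as a block throughout. All 6 genes stayed at least 2-fold higher in label 13 than in labels 14, 6 and 8 in the alternatives for that count, with 1 exception. This was Ebf1 against label 14 without E10.5, which leaves E14.5 replicate 1 alone. There Ebf1 was at 27.9 CPM in label 13, under the 47.8 CPM set for label 14, which had no UMI. No difference could be read for Ebf1 in that case. Within label 13, the 96 genes called lower with stage were 46 with DESeq2, 221 with no filter on low counts, 58 without the library assigned by inference, 62 with at least 20 cells and 62 with cells clustered without the 6 genes. Leaving out 1 sample at a time gave 15 to 78 genes lower and 47 to 146 higher, against 96 and 156 with all. Without E10.5 the counts were 15 and 47, without E18.5 they were 38 and 70, and without E14.5 replicate 2 the genes lower were 62. Over all cells the range was 836 to 1679 higher and 652 to 1675 lower, the lowest without E10.5, with 927 and 963 without E16.5 and 984 higher without E12.5. The share of label 13 cells with any of the genes was 72.6% after thinning. Ebf2 within label 13 missed the threshold by edgeR with the E14.5 samples summed (adjusted p = 0.0574), without the inferred library (0.0635), with at least 20 cells or without E14.5 replicate 2 (0.0798 in both) and in the new clusters (0.111), and with DESeq2 (0.0615). The alternatives on near-identical barcodes, the inferred library and interneuron UMIs were chosen after seeing the data. Ebf1, with 1 to 18 UMIs a sample in label 13, is the member most limited by depth.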
